A study of Mus musculus with 10 samples.

Results

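Histone deacetylases remove acetyl groups from lysines of histones and other proteins, and 10 of the zinc-dependent genes of this family were followed here: Hdac1, Hdac2 and Hdac3 of class I, Hdac4, Hdac5, Hdac7 and Hdac9 of class IIa, Hdac6 and Hdac10 of class IIb, and Hdac11, the only member of class IV. They were chosen by name, and their probe sets were found through the gene identifiers of the array annotation, which gave 18 probe sets for the 10 genes, out of 18082 genes named on the array. The neocortex of 5 male mice aged 30 months and of 5 male mice aged 5 months was compared, and all 10 mice were B6C3F1 hybrids, the offspring of a C57BL/6 by C3H cross, housed singly and fed a control diet, AIN-93M. Only males of 1 hybrid cross were studied. In the authors' deposited comparison, the column names of all 30-month arrays carry the prefix SK, which no 5-month name has. What the prefix marks is not stated in the sources used here, and it cannot be told apart from age. Each mouse had its own Affymetrix M430 2.0 array, so every value below rests on 1 array per mouse and the number of arrays limits the precision. The tissue was whole neocortex: fewer cells of a type and less RNA per cell cannot be told apart in such samples.

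Class I enzymes are nuclear and work inside corepressor complexes named Sin3, NuRD, CoREST and NCoR. Class IIa enzymes have little catalytic activity of their own, bind MEF2 transcription factors and move between nucleus and cytoplasm when calcium-dependent and related kinases phosphorylate them and 14-3-3 proteins bind. Class IIb enzymes act largely in the cytoplasm, where HDAC6 deacetylates tubulin, and HDAC11 is abundant in brain and removes long fatty acyl groups from lysine. Acetyltransferases write the mark that these enzymes remove, and bromodomain proteins read it.

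At 30 months, 4 of the 10 genes were higher than at 5 months (Hdac11, Hdac9, Hdac5 and Hdac1), 1 was lower (Hdac7), and 5 did not pass the test. The changes were small: the largest, of Hdac11, was a 1.27-fold increase, and the decrease of Hdac7 brought it to 0.807 of its level at 5 months. A gene was represented by its brightest probe set (a set of short probes that together report 1 transcript), and it was called at an adjusted p under 0.05 in limma, with Benjamini-Hochberg adjustment over 12114 genes. Of all genes tested, 46.2% were called, 33.9% higher and 12.3% lower, so the 5 calls among 10 genes lie near the share of the whole array and are not a result about the family. The median log2 change was 0.11 over the 10 genes and 0.08 over all genes tested. Changes are given on the log2 scale as 30 months minus 5 months, and signals are the deposited intensities in arbitrary units.

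The calls of Hdac11, Hdac9 and Hdac7 were made under each of 4 scalings of the arrays, and those of Hdac5 and Hdac1 under 2 of them, as given with each gene below. Quantile normalization called 2 of the 10 genes higher and 1 lower, and 43.3% of all genes (22.9% higher, 20.5% lower). Giving the arrays a common median called 4 higher and 1 lower, and 46.2% of all genes (35.4% higher, 10.8% lower). Giving them a common median over only the probe sets above the filter, here the scaling on the brighter probe sets and added after the data were seen, called 2 higher and 1 lower, and 44.4% of all genes (21.7% higher, 22.7% lower). Increases made up 73.4% of the calls on all genes with the deposited scaling, 52.8%, 76.6% and 48.9% with these 3. The median change of all genes was 0.08 as deposited and 0.00, 0.10 and -0.01 with these 3.

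The sequences before the start sites of the members called higher are shown because these genes moved in the same direction. RefSeq promoter sequences (GRCm38.p6) were at hand for 7 of the 10 genes (all but Hdac1, Hdac3 and Hdac10) and 11 start sites. Each run below holds the 250 bases before an annotated start on the strand of the gene, 5′ to 3′. The runs lie at chr6:91156565-91156814 on the plus strand for Hdac11 and at chr11:102230173-102230422 on the minus strand for Hdac5. For Hdac9, they lie at chr12:34917096-34917345 and chr12:34528890-34529139 on the minus strand, for its upstream and its downstream start. The annotated Hdac11 gene begins at chr6:91156670, inside its run, so the later bases of that run lie within the gene. The downstream run of Hdac9 lies wholly within the annotated gene, chr12:34047580-34917095. Capitals mark matches, on either strand, to the GC box GGGCGG, the CCAAT box CCAAT, the TATA box TATAAA and the MEF2 site, the binding sequence of the factors that class IIa enzymes bind.
Hdac11: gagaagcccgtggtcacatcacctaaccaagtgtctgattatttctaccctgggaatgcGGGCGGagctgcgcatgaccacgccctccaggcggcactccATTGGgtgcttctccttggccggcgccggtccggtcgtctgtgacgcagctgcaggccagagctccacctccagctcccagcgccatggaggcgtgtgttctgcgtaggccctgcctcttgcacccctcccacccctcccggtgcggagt
Hdac5: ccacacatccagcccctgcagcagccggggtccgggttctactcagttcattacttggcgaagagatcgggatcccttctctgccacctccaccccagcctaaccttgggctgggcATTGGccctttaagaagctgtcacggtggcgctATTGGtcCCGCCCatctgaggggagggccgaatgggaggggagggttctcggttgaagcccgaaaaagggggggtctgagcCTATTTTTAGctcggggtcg
Hdac9, upstream start: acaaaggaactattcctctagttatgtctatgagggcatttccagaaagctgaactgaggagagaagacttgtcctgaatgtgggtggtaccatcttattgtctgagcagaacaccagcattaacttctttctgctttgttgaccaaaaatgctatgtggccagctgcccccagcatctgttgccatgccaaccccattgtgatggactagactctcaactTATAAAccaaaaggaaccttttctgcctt
Hdac9, downstream start: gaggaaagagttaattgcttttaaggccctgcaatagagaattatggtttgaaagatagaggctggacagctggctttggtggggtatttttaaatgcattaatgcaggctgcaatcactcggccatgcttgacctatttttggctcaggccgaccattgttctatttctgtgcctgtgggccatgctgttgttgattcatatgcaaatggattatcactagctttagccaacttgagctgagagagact

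The Hdac5 run held 1 MEF2 site, 20 to 11 bases before the start (bases -20 to -11), and such a site was found in 1.69% of the 32851 promoter runs of the same length in the table. It also held 2 CCAAT boxes and 1 GC box, motifs found in 33.8% and 32.7% of all runs. The Hdac11 run held 1 CCAAT box and 1 GC box and was 65.2% G and C, against a median of 52.4% over all runs. The upstream run of Hdac9 held 1 TATA box (12.4% of all runs) and was 44.4% G and C, and its downstream run held no match to any motif searched. Also searched on both strands were the E-box CACGTG, the CRE TGACGTCA and the NRF1 motif, found in 6.02%, 1.55% and 0.782% of all runs and in 0 of these 4. The motifs shared no bases with each other in these runs, and a match is only a description of the letters. Members that were not called higher held GC and CCAAT boxes too. The runs of Hdac4 and Hdac6 each held 4 GC boxes and 2 CCAAT boxes. Those of Hdac2 and of 1 start of Hdac7 each held 1 GC box, and the other Hdac7 runs held no match. The runs of Hdac2, Hdac4 and Hdac6 and most of those of Hdac7 lie wholly or partly within their annotated genes.

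Hdac11, the class IV member, had the smallest adjusted p of the family. Its brightest probe set, 1454803_a_at, read 3443, 3373, 3749, 3499.6 and 3482 in the 30-month mice numbered 2 to 6, against 3089, 2639, 2676, 2806 and 2580.3 in the 5-month mice numbered 1 to 5. Every old mouse lay above every young mouse. The change was 0.35 (SE 0.05, adjusted p = 1.68e-04 in limma), with means of 11.78 ± 0.06 in old mice and 11.43 ± 0.10 in young mice on the log2 scale (SD, n = 5 per age). The increase was also called after quantile normalization (0.31, adjusted p = 2.72e-04) and with the scaling on the brighter probe sets (0.26, adjusted p = 0.00187).

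The other probe set of Hdac11, 1451229_at, read 2074, 2389.5, 2103, 2049.6 and 2318 in the 30-month mice, against 2402, 2163, 1845, 1875 and 1765 in the 5-month mice. The ages overlapped, and 5-month mouse 1 had the highest signal of all 10 arrays. Its change was 0.13 (SE 0.08), with a 95% interval from -0.06 to 0.31, and it did not pass the test over all 45037 probe sets (adjusted p = 0.308 in limma). The change was 0.20 without 5-month mouse 1 and 0.08 without 5-month mouse 5, not called in either case, and 0.04 after quantile normalization and with the scaling on the brighter probe sets. When the probe sets of the gene were averaged, Hdac11 was still called, at 0.24 (adjusted p = 0.00646 in limma). The genes whose levels lay closest to those of Hdac11 over the 10 arrays, each centred on its own mean, were Mettl21a, Wdr24 and Ap2b1. The root mean square difference was 0.04 on the log2 scale for each. Both ages were centred together, so this measure favours genes with a like change with age. Their changes were 0.36, 0.28 and 0.31, and likeness within an age was not tested.

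**Figure D1:**
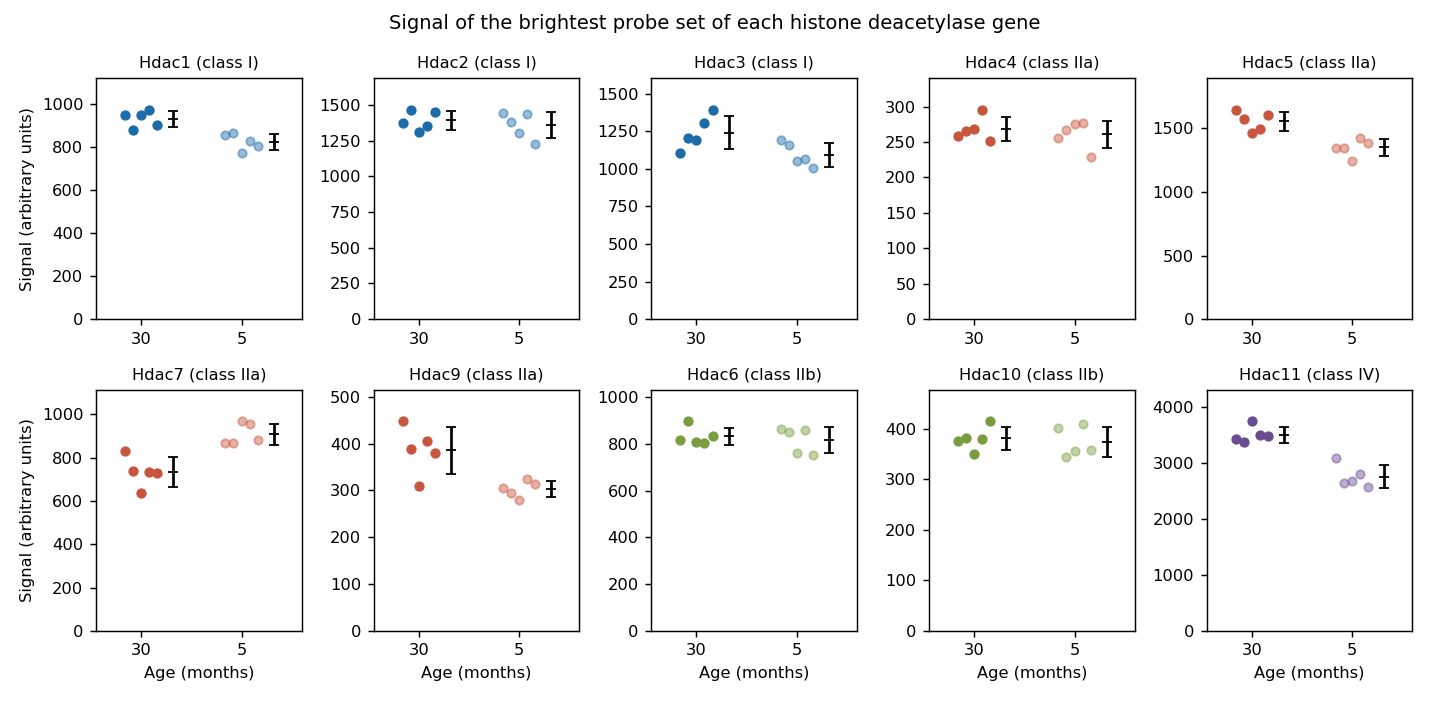
Signal in arbitrary units (y axis, from 0) of the brightest probe set of each of the 10 genes at 30 months (left, dark points) and 5 months (right, pale points), 1 point per mouse, with the mean and SD of each age in black. The old mice lie wholly above the young mice in Hdac1, Hdac5 and Hdac11 and wholly below them in Hdac7.

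Over the 10 genes, the old arrays all lay above the young arrays in 3 genes and all below them in 1, against 24.4% and 5.72% of all genes tested. The separated genes were Hdac11, Hdac5 and Hdac1 above and Hdac7 below, and in the other 6 the ages overlapped.

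Among the class IIa genes, 2 were higher, 1 was lower and 1 did not pass, where 33.9% of all genes tested were higher and 12.3% lower. Their changes ran from -0.31 in Hdac7 to 0.34 in Hdac9. Hdac9 encodes a class IIa enzyme and also a shorter repressor, MITR, that lacks the catalytic domain. Its brightest probe set, 1434572_at, read 447, 387, 309.6, 405 and 379.6 in the 30-month mice numbered 2 to 6, against 304, 295, 280.3, 324 and 313 in the 5-month mice. Of the old mice, 4 lay above every young mouse, and mouse 4 lay among the young ones. The change was 0.34 (SE 0.09, adjusted p = 0.00653 in limma), and it was 0.42 without 30-month mouse 4 and 0.28 without 30-month mouse 2, called in both cases. It was called after quantile normalization too (0.26, adjusted p = 0.0210).

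The other Hdac9 probe set, 1421306_a_at, was designed on a cDNA of the MITR form, per the array annotation. It was dim, below the filter on mean log2 signal of 6.89, and it ranged from 62.5 to 92.1 at 30 months, against 60.6 to 84.8 at 5 months. Its change was -0.03, with a 95% interval from -0.33 to 0.27.

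Hdac7, a class IIa gene known for its part in blood vessels and thymocytes, fell at 30 months. Its brightest probe set, 1420813_at, read 830.1, 739, 639, 735 and 729 in the 30-month mice numbered 2 to 6, against 870.0, 866, 967, 954 and 884 in the 5-month mice. Every old mouse lay below every young mouse, and 30-month mouse 4 was the lowest. The change was -0.31 (SE 0.07, adjusted p = 0.00263 in limma), -0.44 after quantile normalization (adjusted p = 2.99e-04) and -0.40 with the scaling on the brighter probe sets (adjusted p = 3.76e-04).

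The other Hdac7 probe set, 1420812_at, did not pass the test, with a change of -0.01 (95% interval -0.27 to 0.26). It ranged from 215 to 301 at 30 months, against 193 to 277 at 5 months, and the ages overlapped. When both were averaged, the call was lost (-0.16, adjusted p = 0.0792 in limma). The log2 difference between the 2 probe sets was 1.57 ± 0.25 in old mice and 1.87 ± 0.25 in young mice (SD, n = 5 per age; exact permutation test, two-sided, p = 0.0952).

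Hdac5, whose protein leaves the nucleus on neuronal activity, read 1645, 1572, 1463, 1495 and 1600.3 in the 30-month mice numbered 2 to 6, against 1346, 1348, 1246, 1426 and 1383 in the 5-month mice. Every old mouse lay above every young mouse. The change was 0.20 (SE 0.05, adjusted p = 0.00648 in limma), and it was 0.08 after quantile normalization (adjusted p = 0.244) and 0.11 with the scaling on the brighter probe sets (adjusted p = 0.0920). Hdac4, its close relative, did not pass in any of its 3 probe sets: the brightest ranged from 252 to 295 at 30 months, against 229 to 276 at 5 months, with a change of 0.04 and a 95% interval from -0.11 to 0.20. Its probe set 1454693_at ranged from 201 to 282 at 30 months, against 194 to 234 at 5 months, with a change of 0.13 (interval -0.07 to 0.32). The dim 1447566_at, below the filter, ranged from 84.1 to 121 at 30 months, against 101 to 121 at 5 months, with a change of -0.09 (interval -0.33 to 0.14).

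**Figure D2:**
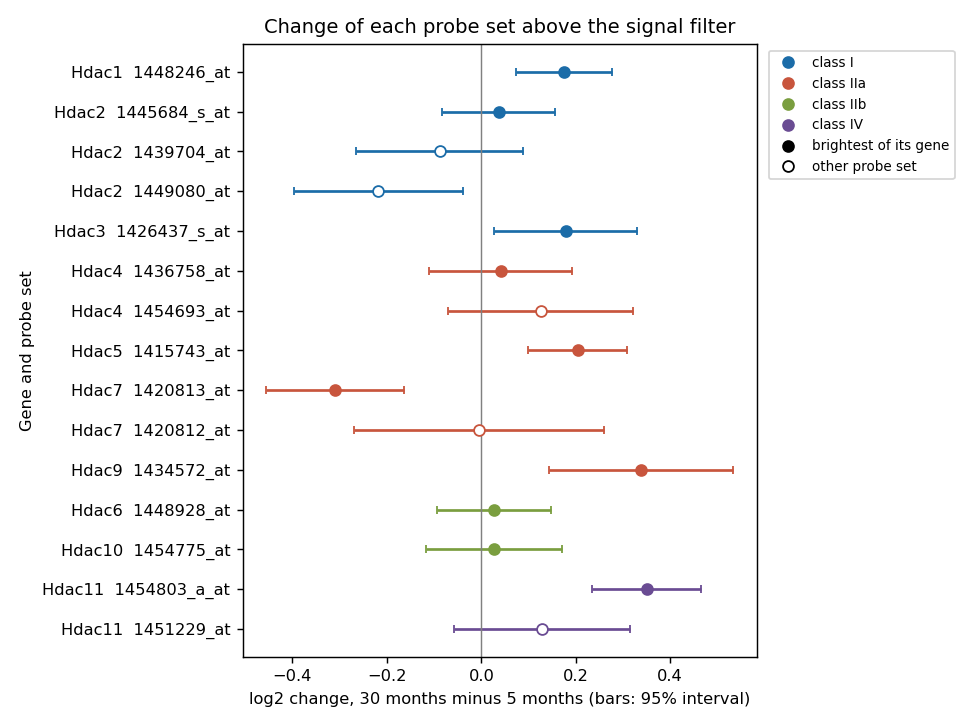
The log2 change (x axis, 30 months minus 5 months, with its 95% interval) of the 15 histone deacetylase probe sets above the signal filter, coloured by class, with the brightest of each gene filled. The brightest probe sets of Hdac11 and Hdac7 lie away from 0 on opposite sides, and the other probe sets of both genes have intervals that include 0.

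Multiplying an array by a factor leaves the log2 difference between 2 of its probe sets as it is, so such differences were compared between the ages. A difference between 2 probe sets on its own does not say which gene is more abundant, since probe sets differ in brightness. The log2 difference Hdac7 minus Hdac9 was 0.93 ± 0.07 in old mice and 1.58 ± 0.12 in young mice (SD, n = 5 per age), a change of -0.65, and it ran from 0.86 to 1.05 in the old mice, against 1.5 to 1.79 in the young mice. Hdac5 minus Hdac7 was 1.09 ± 0.08 at 30 months and 0.57 ± 0.12 at 5 months, a change of 0.51, and Hdac4 minus Hdac7 changed by 0.35. In these 3 pairs the ages did not overlap, and each had p = 0.00794 in an exact permutation test, two-sided, the smallest that 5 against 5 arrays allow. The 20 pairs compared, 10 of probe sets of 1 gene and 10 of genes of 1 class, were a family of tests added after the data were seen. Over them the adjusted p of these 3 was 0.0529 and 0 of 20 pairs passed, while 7 had an unadjusted p under 0.05 in the exact permutation test. At the smallest p allowed, 3 of 20 pairs could not pass on their own, however wide their separation, so the adjustment cannot decide on them. All 3 hold Hdac7, so they are not independent.

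**Figure D3:**
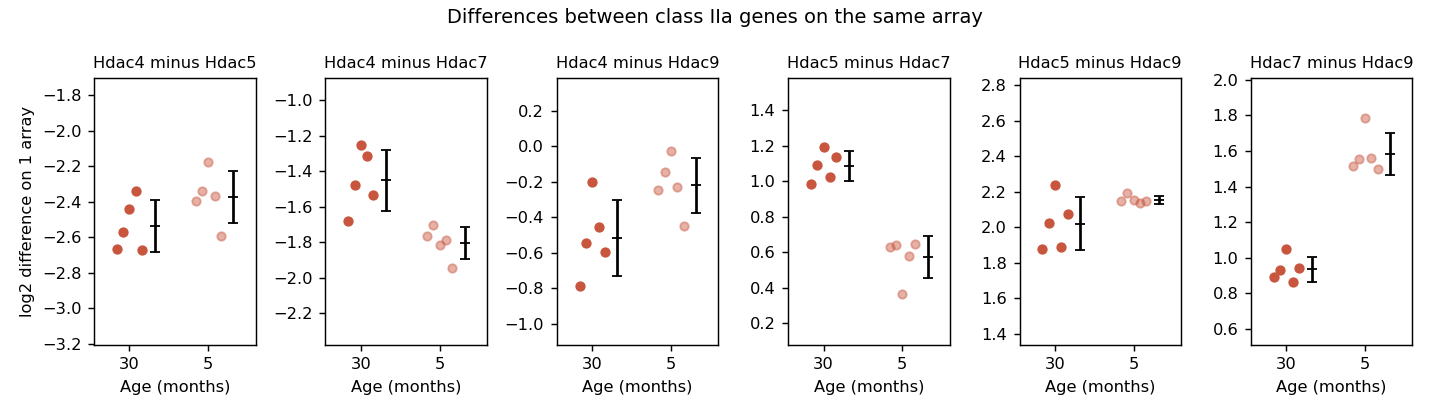
The log2 difference between 2 class IIa genes on the same array (y axis, each panel spanning the same height), for the 6 pairs, at 30 months (left, dark points) and 5 months (right, pale points), 1 point per mouse, with the mean and SD in black. The ages do not overlap in the 3 pairs that hold Hdac7.

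Of the class I genes, which share corepressor complexes, 1 was higher and 2 did not pass. The shares over all genes tested were 33.9% higher and 12.3% lower. Hdac1 read 951, 881, 949, 974 and 903 in the 30-month mice numbered 2 to 6, against 855, 866, 772, 827 and 807 in the 5-month mice. Every old mouse lay above every young mouse. The change was 0.17 (SE 0.05, adjusted p = 0.0161 in limma), and it was 0.05 after quantile normalization (adjusted p = 0.472) and 0.08 with the scaling on the brighter probe sets (adjusted p = 0.213). Hdac3, the catalytic subunit of NCoR complexes, had 1 probe set, 1426437_s_at, whose name marks probes that may match more than 1 transcript. It read 1103, 1205, 1195, 1303 and 1392 in the 30-month mice, against 1193, 1159, 1052, 1065 and 1002 in the 5-month mice. Of the old mice, 4 lay above every young mouse, and mouse 2 lay among them. Its change of 0.18 (SE 0.07) missed the threshold (adjusted p = 0.0519 in limma), and it passed without 30-month mouse 2 (0.22, adjusted p = 0.0212) or without 5-month mouse 1 (0.21, adjusted p = 0.0306). It was 0.04 after quantile normalization (adjusted p = 0.647) and 0.09 with the scaling on the brighter probe sets (adjusted p = 0.33).

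Hdac2, the partner of Hdac1 in most of its complexes and a gene studied for its part in memory, was measured by 3 probe sets, with changes from -0.22 to 0.04. The brightest, 1445684_s_at, read 1376, 1466, 1313, 1353 and 1453 in the 30-month mice, against 1447, 1381, 1301, 1434 and 1228 in the 5-month mice, and the ages overlapped. Its change was 0.04, with a 95% interval from -0.09 to 0.16, and its name marks probes that may match more than 1 transcript. The probe set designed on the Hdac2 reference mRNA, 1449080_at, read 801, 1002, 724, 828 and 839.7 in the 30-month mice, against 1029, 1065, 922, 900.2 and 945 in the 5-month mice. Of the old mice, 4 lay below every young mouse, and mouse 3 lay among them.

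The change of 1449080_at was -0.22 (SE 0.08), which did not pass over all probe sets of the array (adjusted p = 0.0785 in limma). It passed after quantile normalization (-0.34, adjusted p = 0.00625) and with the scaling on the brighter probe sets (-0.31, adjusted p = 0.0102), and without 30-month mouse 3 (-0.28, adjusted p = 0.0159). The third probe set, 1439704_at, had a change of -0.09 with a 95% interval from -0.27 to 0.09. The log2 difference between the brightest probe set and 1449080_at was 0.74 ± 0.12 in old mice and 0.48 ± 0.12 in young mice (SD, n = 5 per age; exact permutation test, two-sided, p = 0.0159, adjusted p = 0.0795 over the 20 pairs).

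The class IIb genes did not pass. Hdac6, the tubulin deacetylase, ranged from 803 to 895 at 30 months, against 754 to 864 at 5 months, and its change was 0.03 with a 95% interval from -0.10 to 0.16. Hdac10, a deacetylase of polyamines, ranged from 351 to 415 at 30 months, against 345 to 411 at 5 months, and its change was also 0.03, with an interval from -0.12 to 0.17. The second probe set of Hdac10, 1441832_at, was near the lowest signals of the array, from 1.00 to 18.9 at 30 months and from 1.14 to 18.1 at 5 months. The difference Hdac6 minus Hdac10 was 1.12 ± 0.09 in old mice and 1.12 ± 0.10 in young mice (SD, n = 5 per age).

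Counted over probe sets, 4 of the 18 were higher and 1 was lower in the fit of all probe sets of the array, in which 22.4% of probe sets were called, 15% higher and 7.44% lower. The old arrays all lay above the young arrays in 3 of the 18 and all below them in 1, against 12% and 4.57% of all probe sets (16.5% in either direction). Of the 18, 15 lay above the filter on signal. In none of the 6 genes with several probe sets did more than 1 of them pass the test with the deposited scaling. The authors' deposited table, which marks a probe set when the lower bound of its fold exceeds 1.2 and its p is at most 0.1, marked 0 of the 18, against 8.96% of all probe sets. In the authors' deposited table the nearest was the brightest Hdac11 probe set, with a fold of 1.27 and a lower bound of 1.19, followed by Hdac9 at 1.27 with a lower bound of 1.13 and Hdac7 at -1.23 with a lower bound of -1.12, where the minus sign marks a decrease.

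**Figure D4:**
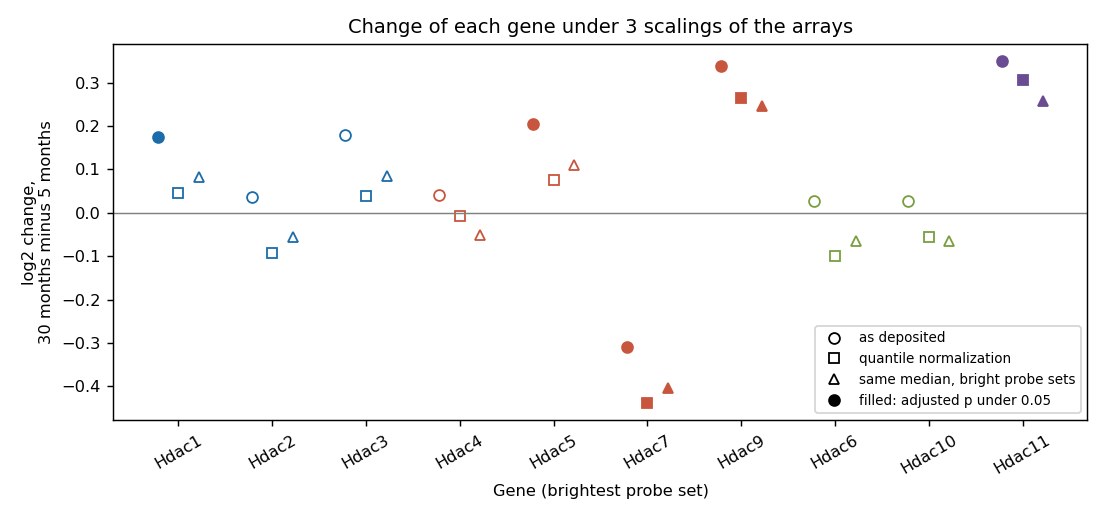
The log2 change (y axis, 30 months minus 5 months) of each gene with the deposited scaling (circles), after quantile normalization (squares) and with the scaling on the brighter probe sets (triangles), filled where the adjusted p was under 0.05. Hdac11, Hdac9 and Hdac7 are filled in all 3, and Hdac1 and Hdac5 only with the deposited scaling.

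The genes that work with these enzymes also went both ways. Of 28 genes of the class I corepressor complexes, 12 rose and 4 fell (median change 0.15), and the other 12 missed the threshold, against 33.9% and 12.3% of all genes tested. Of 10 NuRD genes, 6 rose and 1 fell. They included Mta1 (0.45, adjusted p = 4.21e-05) and Mta3 (0.34, adjusted p = 1.10e-04), scaffolds that hold the deacetylases, and the histone-binding gene Rbbp4 (0.42, adjusted p = 1.32e-04), all in limma. Of 4 CoREST genes, the demethylase gene Kdm1a rose by 0.43 (adjusted p = 1.37e-04 in limma), while the scaffold genes Rcor1 (-0.42) and Rcor3 (-0.65) fell. The other 2 that fell were the NuRD helicase gene Chd4 (-0.30) and Sap18 (-0.37); these 4 were named after their values were seen. Of 4 NCoR genes 3 rose, and of 10 Sin3 genes 2 rose and 1 fell. After quantile normalization 6 of the 28 corepressor genes were higher and 6 lower, where 22.9% of all genes were higher and 20.5% lower. The scaling on the brighter probe sets gave 5 higher and 6 lower, where 21.7% of all genes were higher and 22.7% lower. The 4 decreases were not called when the tested probe sets of each gene were averaged.

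Among 13 acetyltransferase genes there were 5 increases, 0 decreases and 8 genes that did not pass (median 0.13), where 33.9% of all genes tested were higher and 12.3% lower. Ncoa1, a coactivator of nuclear receptors, rose by 0.50 (adjusted p = 2.87e-05), Elp3, the catalytic subunit of Elongator, by 0.40, the p300 gene Ep300 by 0.29 and Kat2a by 0.30 (adjusted p = 2.20e-04, 0.0015 and 0.00288 in limma). Of 5 bromodomain readers, 3 rose and 2 did not pass, and those that rose included Baz2a (0.34, adjusted p = 0.0013) and Brd3 (0.33, adjusted p = 0.00404), both in limma. After quantile normalization 4 acetyltransferase genes were higher and 1 lower, and 3 readers were higher and 1 lower, where 22.9% of all genes were higher and 20.5% lower.

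Of 19 tested partners and kinases of class IIa enzymes, 2 rose, 3 fell and 14 did not pass (median 0.02), beside 33.9% of all genes tested that were higher and 12.3% that were lower. The 3 tested MEF2 genes, Mef2a, Mef2c and Mef2d, did not pass, with changes from -0.06 to 0.08. Among 6 genes of 14-3-3 proteins, Ywhah fell by 0.11 (adjusted p = 0.0200 in limma), Ywhab was the other of the 2 that fell, by 0.07, and it was named after its value was seen. Of 10 kinase genes, Sik3 rose by 0.22 and Camk2d by 0.35, and Camk2b fell by 0.21. Mef2b and Sik1 lay below the filter and were not tested. With the scaling on the brighter probe sets, 1 gene of this list was higher and 8 were lower, beside 21.7% and 22.7% of all genes. A common median over all probe sets moved the count the other way, to 1 lower, beside 10.8% of all genes.

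**Figure D5:**
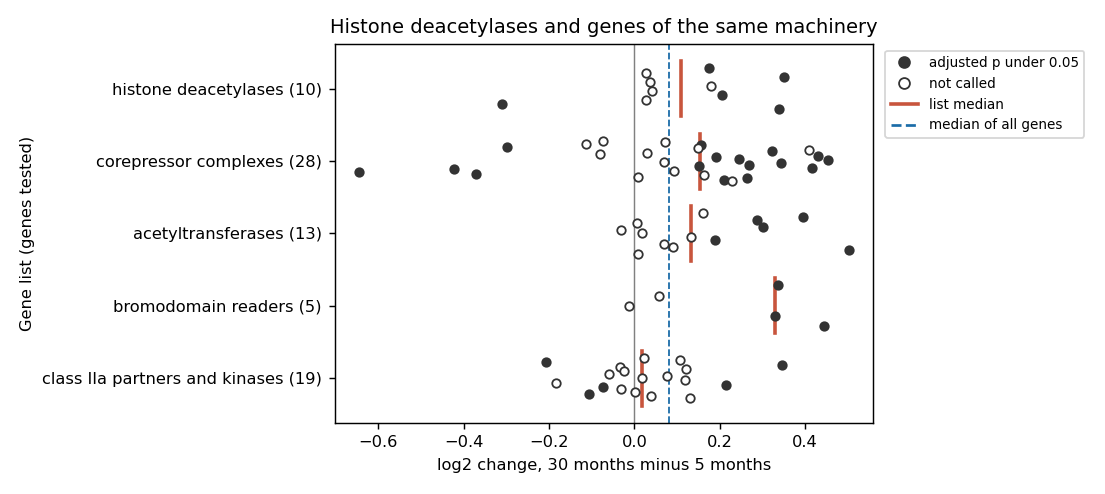
The log2 change (x axis, 30 months minus 5 months) of each tested gene of 5 lists, filled where the adjusted p was under 0.05, with the median of each list in red and the median of all genes, 0.08, as a dashed line. The list medians run from 0.02 for the class IIa partners and kinases to 0.33 for the bromodomain readers.

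Array medians lay between 114.5 and 122.6. All 6 markers of glutamatergic neurons of the neocortex and all 5 pan-neuronal markers lay above the filter, and the markers Kl and Folr1 of choroid plexus and Pcp2 and Gabra6 of cerebellum lay below it. The third cerebellum marker, Cbln1, lay above it and fell, with signals of 310.1 to 340.2 at 30 months, against 365 to 433 at 5 months (adjusted p = 0.00312 in limma). All 3 striatum markers lay above it, with a summed signal of 3897 to 4729 at 30 months, against 4294 to 4839 at 5 months, and of them Ppp1r1b fell (-0.13, adjusted p = 0.0497 in limma). Some markers of other cells moved with age, beside 33.9% of all genes tested that were higher and 12.3% that were lower. Their part in the results above was not tested. Of 5 astrocyte markers 5 rose, with a summed signal from 9988 to 10921 at 30 months, against 5992 to 6987 at 5 months. Of 5 microglia markers 3 rose and 2 fell (6121 to 6670 at 30 months, against 5105 to 5327 at 5 months). Of 3 tested endothelial markers 2 rose (2757 to 3005 at 30 months, against 1798 to 2158 at 5 months), and of 5 oligodendrocyte markers 2 rose (23652 to 28263 at 30 months, against 23189 to 25026 at 5 months). Of 6 markers of glutamatergic neurons 2 rose, of 6 interneuron markers 2 rose, and 0 of 5 pan-neuronal markers passed (29056 to 31011 at 30 months, against 30112 to 32766 at 5 months). The choroid plexus gene Ttr ranged from 2898 to 10851 at 30 months, against 7969 to 10541 at 5 months, and it was lower at 30 months (adjusted p = 0.0447 in limma).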

How the data were processed

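Neocortex RNA of 10 mice was measured on 10 Affymetrix arrays, 5 per age. The deposited intensities are signals per probe set on a linear scale, made with GCOS per the submitters' processing notes, with a background correction and scaling that the sources used here do not state. The authors' deposited comparison table adds signed fold changes with lower bounds, read as a score, and p-values. No other normalization was applied before the main test.

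Signals under 1 were set to 1 and log2 was taken. Probe sets with a mean log2 above the median of all 45037 (6.89) were kept, each gene was represented by its brightest probe set, and 12114 genes were tested with limma 3.58.1 in R 4.3.3 (lmFit, eBayes with a variance trend, two-sided, Benjamini-Hochberg). All probe sets were also fitted without the filter, and the values of single probe sets that are not the brightest come from that fit. Of the probe sets, 36875 had 1 gene, 585 several and 7577 none, after identifiers no longer in the gene table were dropped. The probe set of Hdac6 is named that way. Recovery of known changes was checked in a simulation of 12114 genes, the number in the gene fit. Only a small share of these genes was changed in it, while 46.2% of the genes tested were called in the data. The adjusted threshold was therefore stricter in the simulation, and its recovery rates do not carry over to the data. At a 1.25-fold change, 37 of 67 changed genes were recovered, so changes of that size can be missed in such a setting. At 1.5-fold, 59 of 67 were recovered, and at 2-fold 66 of 66, with 8 false calls.

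All 10 members were described with every probe set. From each gene list up to 4 called genes with the smallest adjusted p were named, and for the member with the smallest adjusted p the 3 genes most like it. One gene that this rule names is not reported here. The members and lists were chosen with earlier results of these data known. The pair comparisons and the scaling on the brighter probe sets were added after the data were seen. Intervals are at 95%. Alternatives covered scaling, signal added before the logarithm, filters, probe set choice, variance settings, a replicate block and leaving out each mouse.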

Additional observations from a re-analysis of the deposited data

Results flagged for a closer look

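In the Hdac7 probe set 1420812_at, 5-month mouse 4 read 193 while the other 4 young mice read 250.5 to 277. Its gap to the nearest mouse was 0.723 of the range of that age on the log2 scale and 0.686 on the signals themselves. In the Hdac9 probe set 1421306_a_at, 30-month mouse 4 read 92.1 while the other 4 old mice read 62.5 to 68.4, a gap of 0.766 of the range on the log2 scale and 0.799 on the signals. Dixon's 95% critical value for 5 samples is 0.71. Of 36 sets of 5 values examined (18 probe sets at 2 ages), 2 exceeded it on the log2 scale and 1, that of Hdac9, on the signals, and chance gives about 1 in 20. Neither probe set is the brightest of its gene, and neither passed the test of age.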

How the results depend on the processing

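Apart from the authors' criteria, the Hdac11 call of the gene fit held under each of 15 alternatives besides leaving out mice, and the Hdac9 call of that fit held in each of the 14 that gave a value. In the fit of all probe sets, the brightest Hdac9 probe set missed the threshold with the brighter probe sets (adjusted p = 0.0501 in limma). It also missed it with the replicate block (adjusted p = 0.133 in limma). The 4 higher genes became 2 after quantile normalization, 2 with the same median over the brighter probe sets (added after the data were seen) and 0 by the authors' criteria, and the 1 lower gene became 0 by the authors' criteria, 0 with probe sets averaged and 2 without x_at and s_at probe sets. Leaving out single mice gave 4 to 5 genes higher and 1 to 1 lower. Counted over probe sets, 4 higher became 2 (quantile) and 1 (brighter probe sets), with 4 to 5 on leaving out mice, and 1 lower became 2 under quantile normalization, the brighter probe sets and a test of only the probe sets above the filter, with 1 to 2 on leaving out mice (2 without 30-month mouse 3). After quantile normalization and with the brighter probe sets, uncalled changes turned negative: Hdac2 to -0.092 and -0.056, Hdac4 to -0.0075 and -0.052, Hdac6 to -0.0985 and -0.066, Hdac10 to -0.0565 and -0.066. Hdac2 was also -0.090 with probe sets averaged and -0.22 (adjusted p = 0.043 in limma) without s_at probe sets, where 1449080_at stands for the gene. On leaving out mice, Hdac2 ran from 0.0013 to 0.0605, Hdac4 from -0.0046 to 0.063, Hdac6 from -0.0012 to 0.048 and Hdac10 from -0.0043 to 0.061. Hdac3 passed with a filter at the 75th percentile (adjusted p = 0.0459) and with array weights (adjusted p = 0.0325, both in limma).

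The mouse numbers 2 to 5 occur at both ages. Deviations of same-numbered mice correlated at -0.33, -0.04, 0.09 and 0.11, which gave no support for pairing but cannot exclude it. The mice were treated as unpaired. With the number as a replicate block over those mice, Hdac5 changed by 0.19 and lost its call (adjusted p = 0.0602 in limma, 0.0271 without the block), 1 probe set was higher and 0 lower, and 0 class IIa partners or kinases were lower (1 without the block).

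Corepressor genes higher, 12, became 7 at a threshold of 0.01, 6 (quantile) and 5 (brighter probe sets), with 9 to 12 on leaving out mice, and the 4 lower became 0 with probe sets averaged. Acetyltransferase genes lower, 0, became 1 (quantile). Bromodomain readers higher, 3, became 1 with probe sets averaged, and lower, 0, became 1 under quantile normalization, the brighter probe sets and without x_at and s_at probe sets. Class IIa partners and kinases higher, 2, became 1 at a threshold of 0.01, 1 (quantile) and 1 (brighter probe sets). The 3 lower became 8 with the brighter probe sets and 1 at a threshold of 0.01, with the same median over all probe sets, with probe sets averaged and with no variance trend, and ran from 1 to 3 on leaving out mice (1 without 5-month mouse 3). Over all genes the share called higher also fell, from 33.9% to 22.9% (quantile) and 21.7% (brighter probe sets). The share called lower rose from 12.3% to 20.5% and 22.7%. The cause of these changes was not tested. Hdac3 had no value without s_at probe sets, Hdac4, Hdac9 and Hdac10 none with the filter at the 75th percentile, and Hdac6 none with probe sets of 1 listed identifier only.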
